A study of Mus musculus with 4 samples.

Results

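The YAP peaks described here lie at 10 mouse genes that encode feedback inhibitors of receptor tyrosine kinase and mitogen-activated protein kinase (MAPK) signalling: Errfi1, Spry1, Spry2, Spry4, Spred1, Spred2, Dusp4, Dusp5, Dusp6 and Dusp10. A peak belonged to a gene when its summit, the highest point of the peak, lay inside the gene span, or within 100 kb of it with no other protein-coding gene nearer. By this rule 57 of the 36576 peaks of the wild-type (WT) list and 25 of the 14879 peaks of the knockout (KO) list belonged to these genes. YAP, a co-activator that reaches DNA through TEAD proteins, had been located by sequencing immunoprecipitated chromatin (ChIP-seq) from epidermal cells of adult mice of 18 to 25 weeks, killed at Zeitgeber time 4 (ZT4) in the light phase. The mice were labelled Bmal1 WT or Bmal1 KO. The labels also write the knockout as Bmal1cKO, without naming the cells in which Bmal1 was deleted. A single peak list, named as pooled, stands for each genotype, with no word on what was pooled.

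Peaks do not measure RNA, so neither the deletion nor the tissue was checked by transcript levels. At Arntl, the gene for BMAL1, 9 of 15 linked WT peaks met a peak of the KO list, against 39.1% of all WT peaks. Of the epidermal genes Krt5, Krt14, Krt1, Krt10, Trp63 and Itga6, all had linked WT peaks, from 2 at Krt1 to 24 at Trp63. Of all protein-coding genes, 52.1% had a linked WT peak. These counts check neither the deletion nor the tissue. With 1 list per genotype, every value below is without replicate error and no test was run. In tissue, fewer cells with a bound site and less binding per cell cannot be told apart. With 1 ChIP sample per genotype, a difference between genotypes also cannot be told apart from one between the 2 immunoprecipitations.

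Growth factor receptors of the epidermis, among them the EGF receptor, act through RAS, RAF, MEK and ERK kinases. The same signalling switches on genes whose products restrain it, and these act at successive steps. ERRFI1 (also called MIG6) binds and blocks the EGF receptor kinase. Sprouty proteins act between the receptors and RAF. SPRED proteins are membrane-bound relatives of Sprouty, and SPRED1 brings the RAS inhibitor neurofibromin to the membrane. Dual specificity phosphatases (DUSPs) remove the activating phosphates of the MAP kinases themselves.

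The promoter windows that bear on the peaks are shown first, as the 250 bases before the RefSeq start of each gene (build GRCm38.p6, called mm10 in the labels), 5′ to 3′ on the gene strand. Dusp5 and Dusp6 are shown because their promoters lay under a peak in both lists, and Spry1 and Spred1 as examples under a WT peak with no KO peak. The windows of Spred2, Dusp10 and the second Errfi1 start also overlapped a WT peak only and are not shown. Capitals mark a TEAD core (GGAATG or its reverse complement) or a CArG box, the serum response factor motif. All 4 genes shown lie on the plus strand.
Dusp5, chr19:53528895-53529144: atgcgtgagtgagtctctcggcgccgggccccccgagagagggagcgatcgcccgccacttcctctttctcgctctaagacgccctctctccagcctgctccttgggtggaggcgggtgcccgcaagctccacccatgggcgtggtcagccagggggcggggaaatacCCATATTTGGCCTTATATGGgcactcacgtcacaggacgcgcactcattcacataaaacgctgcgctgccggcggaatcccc
Dusp6, chr10:99262981-99263230: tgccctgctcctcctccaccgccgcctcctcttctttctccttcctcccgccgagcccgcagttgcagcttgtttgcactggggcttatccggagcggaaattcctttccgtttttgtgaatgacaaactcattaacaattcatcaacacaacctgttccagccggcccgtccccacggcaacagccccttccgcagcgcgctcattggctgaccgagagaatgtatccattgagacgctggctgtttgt
Spry1, chr3:37639697-37639946: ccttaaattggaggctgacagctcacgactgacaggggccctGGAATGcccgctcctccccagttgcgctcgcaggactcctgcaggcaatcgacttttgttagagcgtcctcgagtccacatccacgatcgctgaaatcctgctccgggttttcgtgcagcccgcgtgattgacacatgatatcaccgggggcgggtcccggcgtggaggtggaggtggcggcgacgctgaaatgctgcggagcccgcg
Spred1, chr2:117120821-117121070: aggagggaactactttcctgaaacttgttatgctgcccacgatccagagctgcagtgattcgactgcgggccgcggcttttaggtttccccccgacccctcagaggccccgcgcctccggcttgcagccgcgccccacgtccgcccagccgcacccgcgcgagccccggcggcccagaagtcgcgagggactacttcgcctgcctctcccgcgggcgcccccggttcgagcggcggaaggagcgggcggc

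In these windows the TEAD core GGAATG occurred once, at Spry1, with 202 bases between it and the start. RefSeq windows were found for 8 of the 10 genes, with 9 windows in all since Errfi1 has 2. The other TEAD core in the 9 windows lay before the first Errfi1 start, in a window with no peak. Of 21045 windows of protein-coding genes, 11.6% held GGAATG on either strand, against 11.3% of the windows under a WT peak and 17.3% of those under both a WT and a KO peak. The AP-1 motif TGANTCA was in 6.17% of all windows and the E-box CACGTG, a motif of BMAL1 with CLOCK, in 6.70%. Under a WT peak the shares were 4.61% and 9.58%, and under both a WT and a KO peak 5.94% and 9.98%. Neither motif was in the 9 windows. The windows under a WT peak had a median of 62.0% G and C bases, against 55.6% over all windows. The motif shares were not adjusted for this. The Dusp5 window held 2 adjoining CArG boxes, with 72 and 62 bases between their ends and the start. CArG boxes were looked for after the Dusp5 sequence had been read. At least 1 was in 1.40% of all windows, 1.00% of those under a WT peak and 1.35% of those under both a WT and a KO peak. Of all 21045 windows, 5 held 2 or more. These matches describe the letters of a window and do not show a bound site.

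YAP peaks were spread unevenly over the 10 genes. In WT, 8 of the 10 genes had a linked peak, against 52.1% of all 21631 protein-coding genes. Errfi1 had 16 WT peaks, Spred2 14, Dusp5 11, Spry1 7, Dusp6 4, Spred1 3, and Spry2 and Dusp10 1 each. Spry4 and Dusp4 had none in either list. At least 16 WT peaks were linked to 124 genes, 0.573% of all, Errfi1 included. Since genes with much free sequence around them can collect more peaks, the counts were also set against the sequence for which each gene was the nearest. Per 100 kb of it, there were 12.3 WT peaks at Errfi1, 10.0 at Spry1, 9.82 at Dusp5, 6.39 at Spred2 and 2.92 at Dusp6. The rate was 1.54 at Spred1, 0.709 at Dusp10 and 0.488 at Spry2, against 1.83 over all linked sequence.

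**Figure D1:**
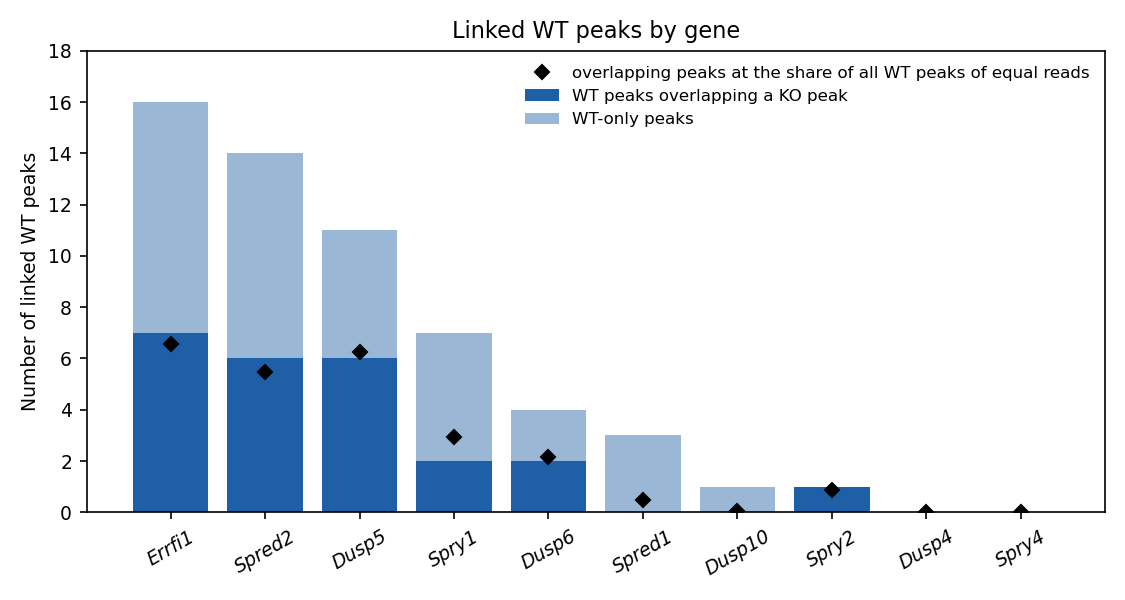
Number of WT peaks linked to each of the 10 genes, split into those that overlapped a KO peak (dark) and WT-only peaks (light). Diamonds give the number that would overlap at the share of all other WT peaks with as many reads; from Errfi1 with 16 peaks to Dusp4 and Spry4 with 0, the dark bars stay within 1 peak of them.

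A WT peak is called kept when it shared at least 1 bp with a KO peak, and WT-only otherwise. Of the 57 WT peaks, 24 were kept (42.1%, exact 95% Clopper-Pearson interval 29.1 to 55.9, for counting error only), against 39.1% of all WT peaks. A kept peak was present at 6 of the 10 genes, against 29.5% of all protein-coding genes, and a KO peak at the same 6, against 29.7%. These were Errfi1 with 7, Spred2 and Dusp5 with 6 each, Spry1 and Dusp6 with 2 each, and Spry2 with 1. At Spred1 and Dusp10 every linked WT peak was WT-only. All 25 KO peaks overlapped a WT peak, against 99.0% of the KO list, so none was KO-only; the whole KO list had 153 that were. The kept share was thus near that of the whole WT list.

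The height of a peak is given below as the whole number of reads at its summit, recovered from the fold enrichment and p-value that the authors deposited. Evenly spread reads would give 9.63 reads in either list, and the lowest called summit had 28 reads in WT and 29 in KO. A log2 KO to WT ratio is taken after subtracting these 9.63 reads on both sides, and its counting SD covers only the Poisson error of the reads. For WT-only sites the KO reads were not analysed here, since a peak list gives reads at its own summits. The caller's own local background at the 57 WT summits reached 18.7 reads, and it was not used for the ratio.

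**Figure D2:**
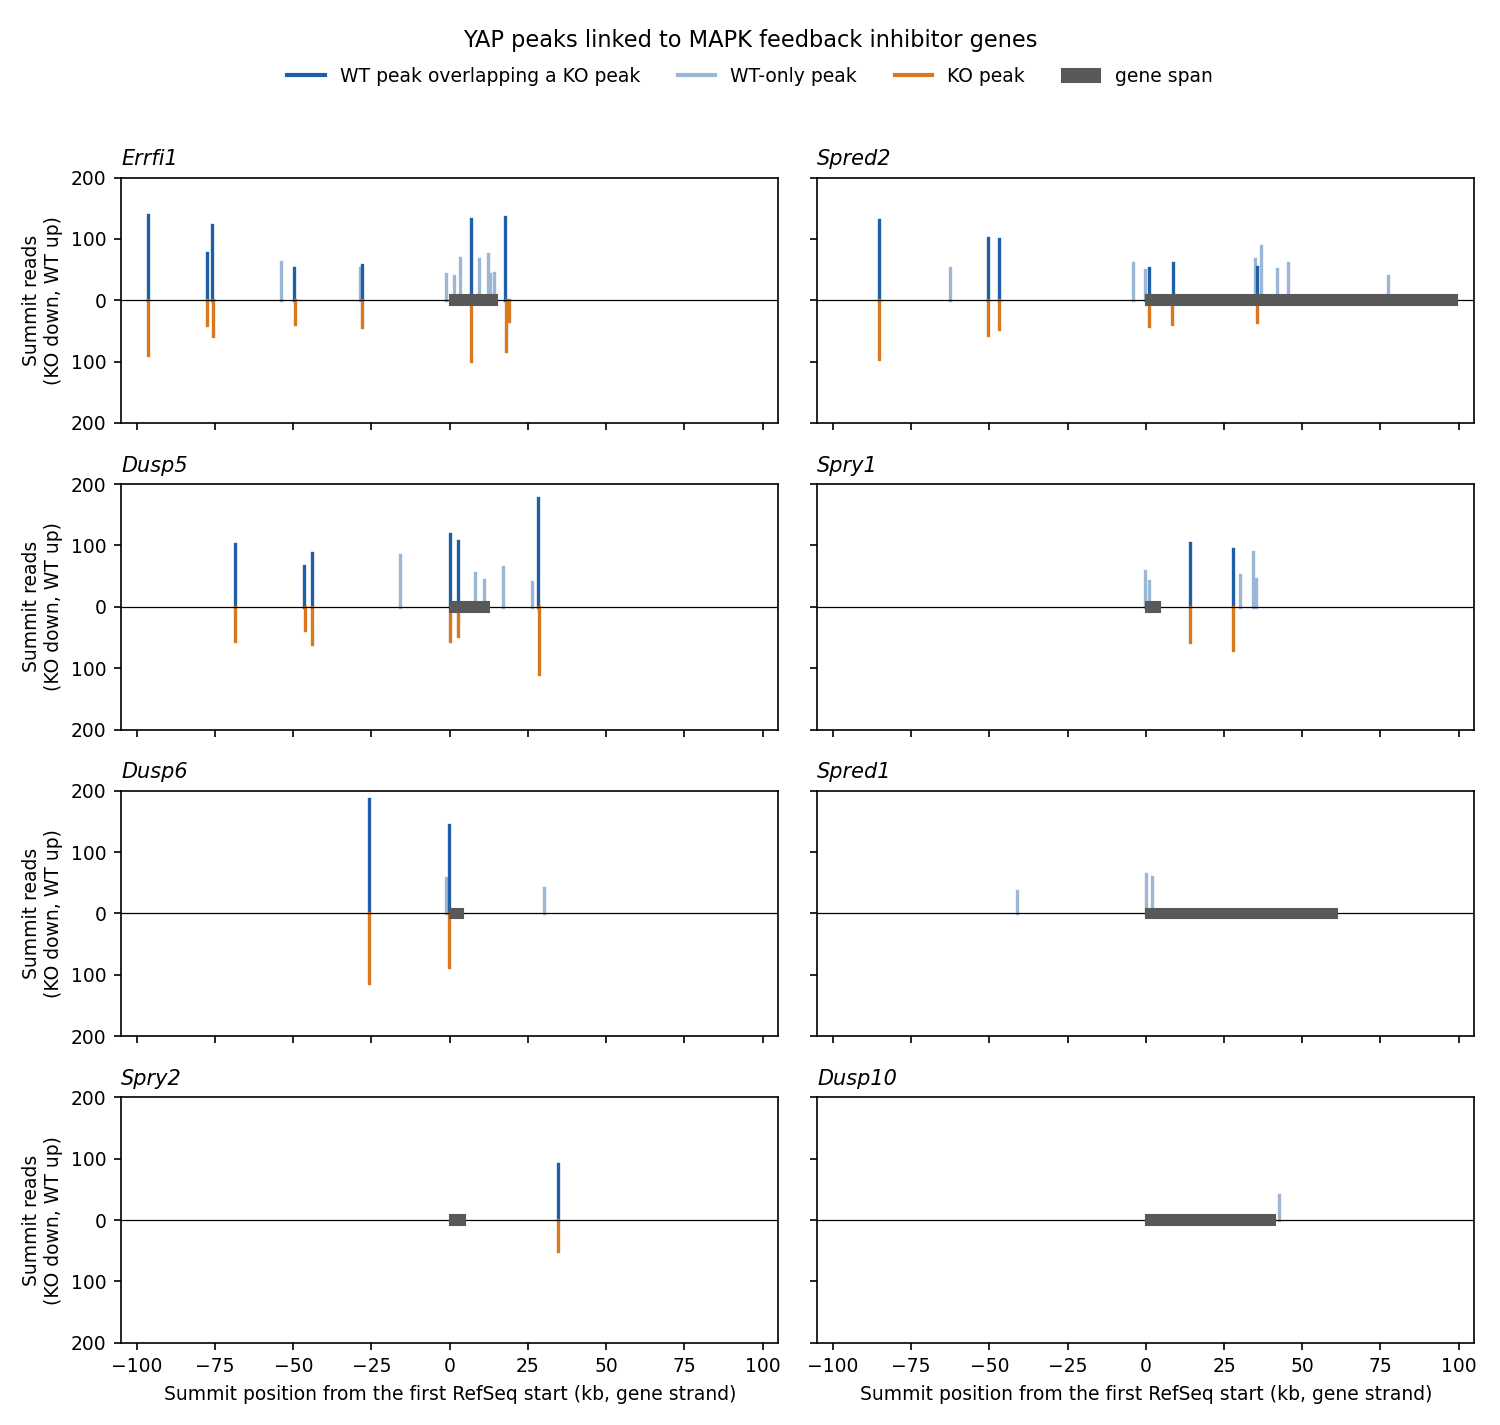
Position and height of the linked peaks at the 8 genes with a peak: distance of each summit from the first RefSeq start in kb along the gene strand (x axis) and recovered reads at the summit, with WT upward and KO downward (y axis). Errfi1, Spred2 and Dusp5 have peaks on both sides of the start, and at Dusp6 the WT summits of 186 and 144 reads stand over KO summits of 114 and 88.

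At the receptor step, Errfi1 (gene ID 74155, chromosome 4, 150853796 to 150868889) had 16 WT peaks, 7 of them inside the gene span, with summits spread over 114 kb. The summit with most reads, 139 in WT and 90 in KO, lay 96412 bp before the gene, at 150757093 to 150757643. A pair of peaks nearer by, at 150777671 and 150775409, had 123 and 77 reads in WT and 59 and 40 in KO. These distal peaks lay far from the start and were all kept. Within the span, the peak at 150860424 to 150861024 had 133 WT and 99 KO reads, and its WT and KO summits fell on the same base. Just behind the gene, 2701 bp from its end, a wide peak of 1857 bp (150870973 to 150872829) had 136 WT reads. It overlapped 2 KO peaks, of 82 and 34 reads. Inside the span that peak of 133 reads was the only one kept; the other 6, with 39 to 76 WT reads, were WT-only. The highest of these, at 150865853 to 150866344, had 76 reads. Among the peaks before the gene, 2 further ones were kept, with 53 and 58 WT reads and 39 and 43 KO reads, and those with 62, 53 and 42 WT reads were WT-only.

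For the Sprouty genes, the data differed from gene to gene. Spry1 (chromosome 3, 37639947 to 37644599) had a WT-only peak over its promoter, with 58 reads and the summit 122 bp before the start. A further WT-only peak with 42 reads lay inside the gene. Its 2 kept peaks lay behind the gene, where 104 WT and 57 KO reads stood at 37653691 to 37654439 and 95 and 71 reads at 37667642 to 37668153. Beyond these, at 37674002 to 37674584, lay the WT-only peak with the most reads at Spry1, with 89, its summit 6379 bp from the nearest KO summit. Of all WT peaks with 80 to 89 reads, 74.7% were kept. The remaining 2 peaks, of 52 and 46 reads, were WT-only.

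Spry2 (chromosome 14, 105891947 to 105896819) had a single linked peak, 29605 bp behind the gene, with 92 WT and 50 KO reads. The next WT peaks on that side, of 50, 33, 59 and 46 reads, lay 122220 to 263774 bp from Spry2, beyond the limit of 100 kb, and none was kept. The promoter of Spry2 lay under no peak.

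Around Spry4 the nearest WT summit was 68122 bp away, with 109 WT and 77 KO reads, and another gene, Ndfip1, was nearer to it. Without that rule of the nearest gene, Spry4 would therefore have had this 1 peak.

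Of the SPRED genes, Spred2 (chromosome 11, 19924442 to 20024026) had 14 WT peaks and Spred1 3. The highest Spred2 summit lay 85306 bp before the gene, at 19838850 to 19839433, with 131 WT and 96 KO reads. Next came the peaks at 19873758, with 101 WT and 56 KO reads, and at 19877295, with 99 and 47. All 3 of these distal peaks were kept. Close to the start, a peak of 49 reads 300 bp before it was WT-only, while one of 53 WT and 42 KO reads 1165 bp behind it was kept. Deeper in the gene, 2 peaks were kept, with 61 and 54 WT reads and 39 and 35 KO reads. A group of 3 peaks 34872 to 36953 bp into the gene included the WT-only peak with most reads, 89, at 19960961 to 19961621. It lay 1276 bp from the nearest KO summit. The other WT-only peaks of Spred2 had 40 to 67 reads.

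Spred1 (chromosome 2, 117121071 to 117182279) had no KO peak. Its promoter lay under a wide WT-only peak of 1631 bp (117119895 to 117121525) with 65 reads, the summit 68 bp before the start. A second peak 2018 bp behind the start had 59 reads, and one 41234 bp before it had 37. The nearest KO summits lay 104110 to 147362 bp from these 3 summits. In the whole list, the kept share at these heights was low: 31.8% from 60 to 69 reads, 13.4% from 50 to 59 and 1.27% under 40.

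Among the phosphatases, Dusp5 and Dusp6, both selective for ERK, carried the highest peaks. DUSP5 is nuclear and DUSP6 cytoplasmic. The Dusp6 peak at 99237000 to 99237837 on chromosome 10, 25867 bp before the gene, had the most reads at any of the 10 genes, 186 in WT and 114 in KO. The peak over the Dusp6 promoter shown above (99262706 to 99263517) had 144 WT and 88 KO reads, with summits 113 and 103 bp before the start. Both were kept. A WT-only peak of 58 reads lay 1090 bp before the start, and another of 42 reads lay 25851 bp behind the gene.

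Dusp5 (chromosome 19, 53529145 to 53541809) had its highest summit 15596 bp behind the gene, at 53556821 to 53557982, with 177 WT and 109 KO reads. Over its promoter and start, shown above with the CArG boxes, the peak at 53528633 to 53529735 had 118 WT and 56 KO reads, with summits 38 and 103 bp behind the start. The next peak, 2564 bp behind the start, had 108 WT and 48 KO reads. Before the gene, the peaks at 53460106, 53482099 and 53484125 had 102, 67 and 88 reads in WT and 56, 38 and 61 in KO. The KO reads were lower at each of these 6 kept peaks. Of its 5 WT-only peaks, the highest had 84 reads (53512923 to 53513348), 15986 bp before the gene, and the others 40 to 65.

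DUSP10 acts mainly on the p38 and JNK kinases and DUSP4 is a nuclear phosphatase of several MAP kinases. Dusp10 (chromosome 1, 184034381 to 184075636) had 1 linked peak, WT-only, of 41 reads, 1237 bp behind the gene. A WT-only peak of 54 reads also lay over its promoter, the summit 260 bp before the start. The rule gave that peak to the neighbouring gene 1700056E22Rik, 123 bp away. At Dusp4 the nearest WT summit lay 145691 bp from the gene, with 51 reads, inside Tnks.

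Whether a peak at these genes was kept went with its WT reads. From 100 reads up, 13 of 13 were kept, against 98.6% in the whole WT list. From 60 to 99 reads, 7 of 19 were kept, against 54.5%. Under 60 reads, 4 of 25 were kept, against 7.14%. At the shares that all other WT peaks showed with equal reads, 24.8 of the 57 would be kept, against 24 found. By gene the corresponding numbers were 6.57 against 7 at Errfi1, 5.49 against 6 at Spred2, 6.25 against 6 at Dusp5 and 2.95 against 2 at Spry1. The median WT reads were 101.5 for kept and 53 for WT-only peaks, and 92 and 51 in the whole list. Kept peaks were also wider in WT, with a median of 711 bp against 446 bp, as they were in the whole list with 687 and 435 bp.

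**Figure D3:**
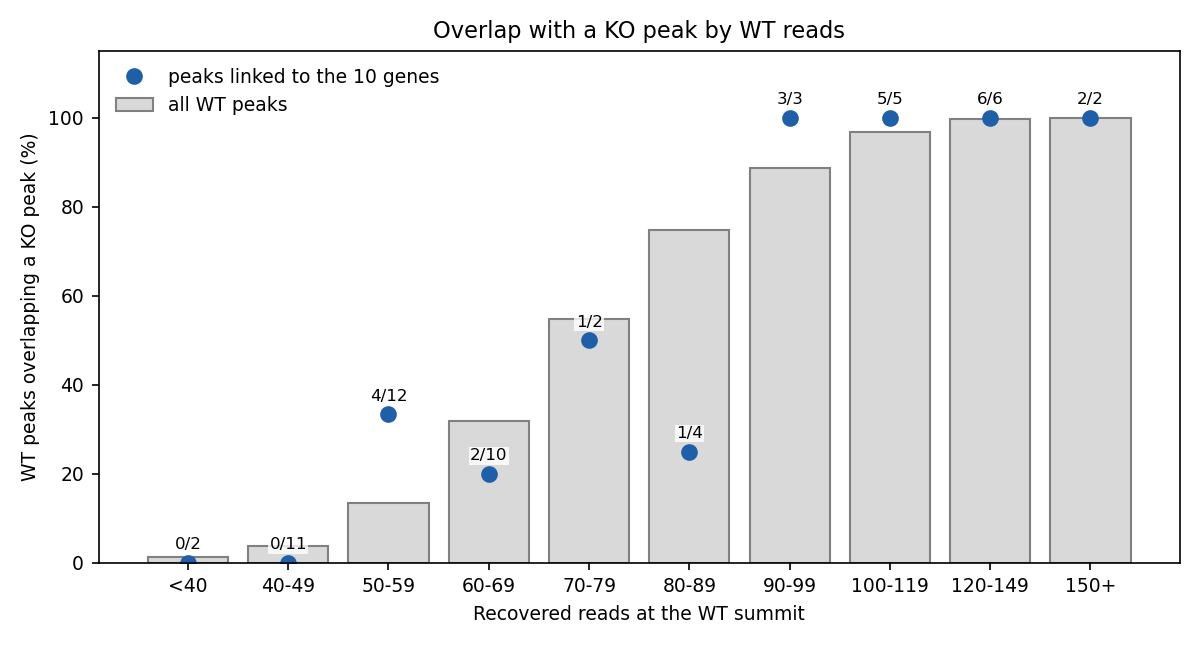
Share of WT peaks that overlapped a KO peak (y axis, percent) by recovered reads at the WT summit (x axis), for all WT peaks (bars) and for the 57 peaks of the 10 genes (points, with kept over all). Of these 57, all 13 with at least 100 reads were kept, and none of the 13 under 50 reads was.

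At every one of the 24 kept peaks the KO summit had fewer reads than the WT summit, which also held for 99.5% of all kept peaks. The log2 KO to WT ratio had a median of -0.81 over the 24 peaks and -0.88 over all kept peaks linked to a gene. Because a weak site is kept only if its KO reads still pass the caller, the 13 peaks with at least 100 WT reads were looked at alone. Their median was -0.80, with an interquartile range of -0.99 to -0.75, and the median of all such linked peaks was -0.92 (-1.09 to -0.75). Set against all other kept peaks with about equal WT reads, the 24 peaks lay at a median difference of -0.0035 in log2 ratio.

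**Figure D4:**
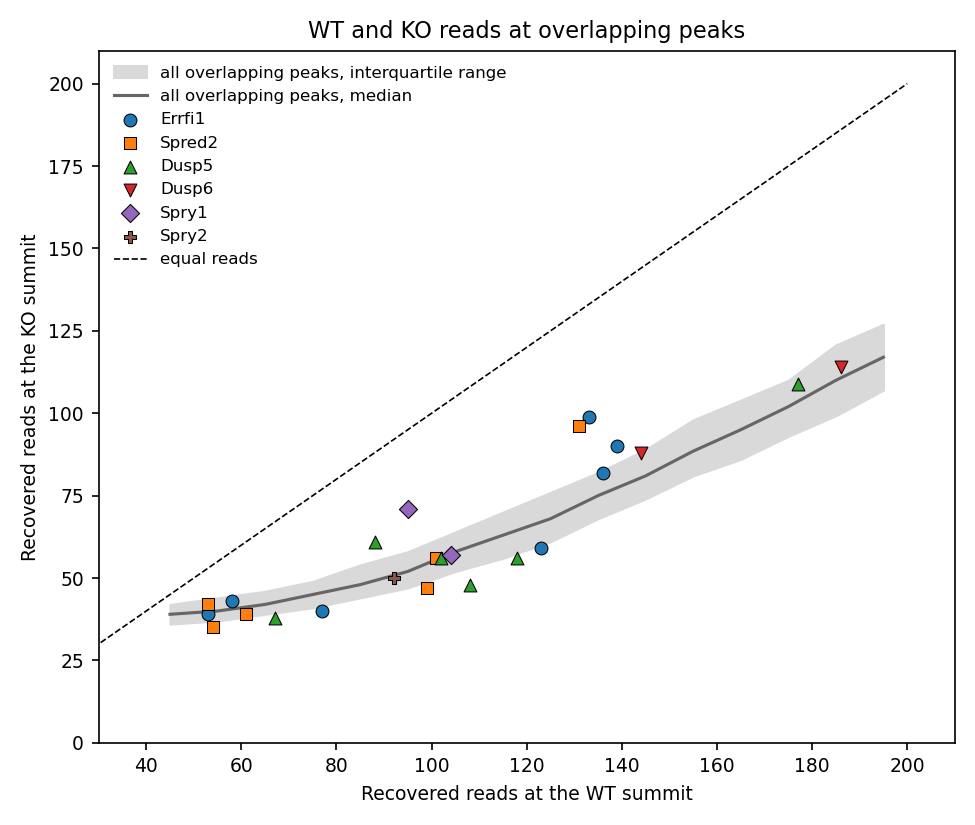
Recovered reads at the KO summit (y axis) against the WT summit (x axis) for the 24 kept peaks, by gene. The line and band are the median and interquartile range of all kept peaks in steps of 10 WT reads; all 24 points lie under the line of equal reads, from 186 and 114 reads at Dusp6 down to 53 and 39 at Errfi1.

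The ratios of the 13 peaks ran from -1.36 to -0.47. The lowest were both at the start of Dusp5, -1.36 (counting SD 0.302) at the peak 2564 bp inside it and -1.22 (0.274) over the promoter, followed by -1.20 (0.265) at the Errfi1 peak 75828 bp before the gene. The highest were -0.47 (0.210) inside Errfi1 and -0.49 (0.213) at the distal Spred2 peak. The Dusp6 peaks had -0.76 (0.185) and -0.78 (0.215). Between peaks the SD was 0.273, against a median counting SD of 0.224 and an SD of 0.260 over all kept peaks with at least 100 reads. Without replicates the order of these peaks is not established, and it depended on the background. With the deposited fold, which uses the caller's local background, the log2 KO to WT ratios of the 13 peaks ran from -1.29 to -0.15, with an SD of 0.418 and a median of -0.59. Over all kept peaks with at least 100 reads they had an SD of 0.427 and a median of -0.69. On that scale the Dusp6 peaks were the highest of the 13, at -0.16 and -0.15, with a local background of 14.3 and 14.4 reads in WT and 9.63 in KO. The peak inside Errfi1 then had -0.59 and the distal Spred2 peak -0.41, while the lowest was the Errfi1 peak 75828 bp before the gene, at -1.29, ahead of the Dusp5 promoter at -1.26. With even background, the values within 1 gene covered most of the range, from -1.20 to -0.47 at Errfi1 and from -1.36 to -0.75 at Dusp5.

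**Figure D5:**
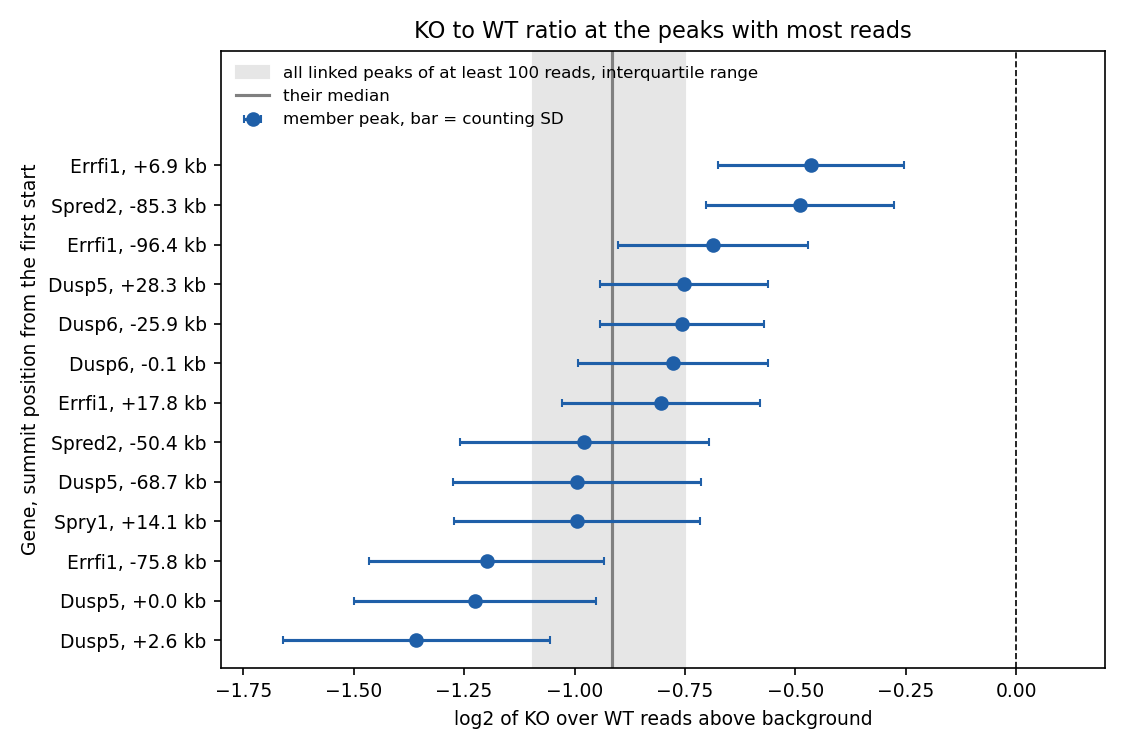
log2 KO to WT ratio of reads above background (x axis) at the 13 WT peaks with at least 100 reads (y axis, gene and summit position in kb from the first start). Bars are counting SDs; the band and line give the interquartile range and median of all linked peaks with at least 100 reads, -1.09 to -0.75 and -0.92, and all 13 points lie below 0.

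Most peaks of these genes lay outside the gene span, namely 36 of the 57 WT peaks, 63.2%, against 42.8% of all linked WT peaks, and over 10 kb outside lay 43.9% against 20.9%. The spans of Spry1, Spry2 and Dusp6 are short, at 4653, 4873 and 4259 bp. The shares of peaks inside and outside were not set against the length of sequence inside and outside the spans. That length differed between genes. The span was 4259 bp of the 137 kb nearest to Dusp6, and 99585 bp of the 219 kb nearest to Spred2. Of the peaks over 10 kb outside, 15 of 25 were kept, with a median of 84 WT reads, against 42.7% of all such peaks with a median of 63. Inside the spans 6 of 21 were kept, with a median of 59 reads, against 37.4% with a median of 60. At the shares for equal reads, 13.8 of the 25 distal and 6.69 of the 21 inside peaks would be kept. Within 2 kb of a RefSeq start lay 10 of the 57 peaks (17.5%), against 22.5% of all linked WT peaks. Of these 10, 3 were kept (30.0%), against 31.7% of all linked WT peaks near a start, and 2.81 would be kept at equal reads. The 3 were the Dusp5 peak over the start, the Dusp6 peak 113 bp before the start and the Spred2 peak behind the start. Promoters with a WT peak were found for Dusp5, Dusp6, Spry1, Spred1, Spred2, Dusp10 and the second start of Errfi1, against 33.7% of all promoter windows. Only those of Dusp5 and Dusp6 also lay under a KO peak, 2 of 7, against 28.3% of all windows with a WT peak and 9.59% of all windows.

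Other genes of the pathway also carried YAP peaks, given here by lists. Of all protein-coding genes, 52.1% had a WT peak and 29.5% a kept peak, and 39.0% of all linked WT peaks were kept, against which the following counts are to be read. Of 9 further Sprouty, SPRED and DUSP genes, 5 had a WT peak and the same 5 a kept peak, while Spry3, Spred3, Dusp2 and Dusp9 had none. Of their 33 WT peaks, 19 (57.6%, interval 39.2 to 74.5) were kept, where 18.5 would be at equal reads. Dusp16, a phosphatase of JNK and p38, had the highest of these peaks, with 205 WT and 154 KO reads. Dusp1, an immediate early phosphatase, had 172 and 109 reads at its highest peak. At the peaks with at least 100 reads, the median log2 ratio was -0.75 in these genes, -0.90 in the ERK cascade, -1.02 in the receptor brakes and -0.84 in the ERK targets described next, against -0.92 over all linked peaks of that height. These medians rest on 8, 9, 12 and 14 peaks. The values within the lists overlapped, from -1.43 to -0.44, -1.29 to -0.39, -1.20 to -0.32 and -1.53 to -0.65, so no order of the lists is established.

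Of 17 genes of the ERK cascade, 16 had a WT peak and 10 a kept one, against 52.1% and 29.5% of all protein-coding genes. Of their 49 WT peaks, 16 were kept (32.7%, where 20.3 peaks would be at equal reads). Ksr1, which encodes a scaffold of the cascade, had the highest summit, with 191 WT and 107 KO reads, and Hras had 180 and 140. Map2k1, which encodes the ERK kinase MEK1, had no peak. Mapk3, which encodes ERK1, had 1 WT peak, of 68 reads, and it was WT-only.

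Of 10 genes for RAS-inhibiting proteins and receptor brakes, all had a WT peak and 8 a kept one, against 52.1% and 29.5% of all protein-coding genes. Of their 74 WT peaks, 27 were kept (36.5%, where 29.8 peaks would be at equal reads). Cbl, a ubiquitin ligase for activated receptors, had the highest summit, with 197 WT and 160 KO reads, and Socs3, an inhibitor of cytokine receptor signalling, had 190 and 91. Nf1, which encodes neurofibromin, had 2 WT peaks, both WT-only, the higher with 67 reads. Of 10 genes that ERK signalling switches on, all had a WT peak and 9 a kept one, against the same 52.1% and 29.5%. Of their 64 WT peaks, 30 were kept (46.9%, where 27.2 peaks would be at equal reads). Ier3 had the highest, with 205 WT and 131 KO reads, and Egr1, an immediate early transcription factor gene, had 148 and 95. In both lists, as in the others, all kept peaks had fewer reads in KO than in WT.

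The genes most like Dusp6, the member with the most WT reads at a peak, were Rap2c, Ndufaf6 and Phldb2. Likeness was the distance over the numbers of WT and KO peaks and the reads of the highest WT and KO summit, each as log2 of the value plus 1, over 2 libraries. The distances were 0.0265, 0.0297 and 0.0455. Each of the 3 had 4 WT and 2 KO peaks, as Dusp6 had, and its highest WT and KO summits had 187 and 112, 184 and 112, and 191 and 116 reads. The measure places genes by peak number and height only.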

How the data were processed

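YAP was mapped by ChIP-seq with 1 ChIP and 1 input sample per genotype; files of the 2 ChIP samples were used and the inputs were not analysed here. Trimmomatic 0.36, SAMtools 1.5 and MACS2 2.1.1 are named in the submitters' processing notes, with build mm10, with the aligner not given in the sources used here. Deposited lists have 10 columns and no header. The deposited score is 10 times the −log10 q, truncated; the deposited fold is a ratio of ChIP signal to background at the summit; the −log10 p and −log10 q are the authors' own. The exact depth of each pool is unknown. Evenly spread reads, as recovered here, would give the same 9.63 reads in both lists.

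From fold (pseudocount 1) and p, the whole number of Poisson-distributed reads at each summit was solved, with ChIP scalings of 0.694 (WT) and 0.842 (KO) found by search. The −log10 p was matched within 0.002 for 100% of peaks in either list; with the scaling 3% off, it was matched for 0.861% (WT) and 0.397% (KO). By 1 whole number only, 99.97% of WT and 98.0% of KO peaks were matched; otherwise the closest was taken. Reads were returned exactly for 100% of 36505 and 14866 peaks of test lists made with the same formulas, which checks the search, not whether the authors' lists follow them. A kept peak was paired with the overlapping KO peak of most reads. Equal-read shares used 10 bins of reads.

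Gene spans and promoter windows came from NCBI RefSeq tables of GRCm38.p6. The 10 genes, the pathway lists, the comparisons and the named peaks (all members; WT peaks with at least 100 reads; the WT-only peak of most reads per gene; the 2 genes of most reads per list) were chosen with earlier results of these data known; Mapk3, Nf1, genes without peaks and further peaks were named after their values were seen. Python 3.11.15, numpy 2.4.6, scipy 1.17.1 and pandas 2.3.3 were used. Alternatives changed the overlap rule, the list length, the q limit, the linking distance, the background and the measure.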

Additional observations from a re-analysis of the deposited data

How the results depend on the processing

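The kept share of 42.1% moved beyond its interval in 2 settings: it was 82.6% (19 of 23 peaks) with as many top-scoring WT peaks as there are KO peaks, which leaves out the lower WT peaks, and 28.1% (9 of 32) with linking within 10 kb, where the cause was not tested. Over all WT peaks, the shorter WT list gave 77.8%, and of all WT peaks linked within 10 kb, 10247 of 26963 were kept. Linking within 10 kb also took the number of peaks from 57 to 32. The share lay between 33.3% and 45.1% with 50% reciprocal overlap, summits within 200 bp, a −log10 q of at least 5, all peaks within 100 kb of the genes, linking within 500 kb, and without Errfi1, Dusp5 or Spred2; linking within 500 kb, the omissions, the ratio from 100 reads and the count of genes with a kept peak over all peaks within 100 kb were chosen after seeing the data. The median log2 ratio was -0.71 without background subtraction and -0.63 with the deposited fold. Reciprocal overlap ended the overlap of 5 peaks (3 at Dusp5, at 53460106, 53482099 and 53484125, 1 at Errfi1 and 1 at Spred2) and summits within 200 bp that of the Errfi1 peak behind the gene. The kept share was then 33.3% and 40.4% at the 10 genes. Over all WT peaks it was 32.1% and 37.9%, against 39.1% by the main rule. Genes with a kept peak numbered 5 to 7. Motifs around summits were not run, since no genome was used here; promoter windows took their place. No paired analysis was possible because the lists are pooled and carry no replicates. Sites with few reads are limited to what the caller passed.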
